A study of Mus musculus with 18 samples.

Results

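The genes described here are 50 genes that act in DNA replication and S phase, taken by symbol from a deposited table of 54354 rows, 1 row for each of the 50. They were read in mouse RNA sequencing libraries that the labels describe as colon, cell type tumor, genotype wild type. The comparison set 5 libraries of a serine-free high fat diet (SF_HFD) against 5 of a serine-free control diet (SF_CD), so all 10 share the absence of serine from the diet. The labels give no age, strain, tumor model or agent, and the GFP in the series title is not explained. The extraction protocol speaks of RNA from organoids, which are small three-dimensional cultures of epithelial cells, while the design text speaks of sorted live cells for single-cell sequencing. The sources do not settle which holds. Whether the 5 libraries of a diet stem from different mice or cultures is not stated, so a p-value here reflects how much these libraries vary, possibly for technical reasons alone. The 8 libraries of the diets with serine were not used, because 27 of the 50 rows are at 0 in all 8 columns and the rows named Actb, Gapdh, Eef1a1 and Epcam hold 0 counts there, against at least 106 counts for each in any serine-free library.

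Before a cell divides, it copies its DNA once. In G1 the MCM helicase is loaded onto origins by the licensing factors Cdc6 and Cdt1, and in S phase Cdc45 and the GINS proteins join it, polymerases and primase copy the strands, and a sliding clamp holds the polymerases in place. Many of these genes are transcribed together at the G1/S boundary under E2F factors, and in the colon their transcripts mark the dividing cells of the crypt and of tumors.

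No replication gene passed the test between the diets, and the direction of most depended on which libraries were read. In all 10 libraries none of the 50 passed an adjusted p of 0.05 in either direction (edgeR quasi-likelihood test, Benjamini-Hochberg over 11780 genes), where 0.153% of all genes tested were called higher and 0.17% lower in SF_HFD. The lowest edgeR adjusted p was 0.323, for Cdt1. At an unadjusted p under 0.05 stood 1 member on the higher side, Cdt1, against 4.92% of all genes, and 4 on the lower side, Cdca7, Lig1, Pola1 and Wdr76, which is 8% of the members against 6.73% of all genes. DESeq2 also called no member, where 2.53% of all genes were called in either direction, and 6 members stood at an unadjusted p under 0.05 against 15.3% of all genes. Limma-voom with sample quality weights called no member, against 1.47% of all genes, and 11 members stood at an unadjusted p under 0.05 against 19.1%. Groups that did not overlap were seen for no member, against 2.23% of all genes on the higher side and 1.42% on the lower. The log2 fold change, SF_HFD over SF_CD, was negative for 31 of the 50 members (62%), against 48.6% of all genes tested, with a median of -0.16 against 0.02. Its range ran to 1.63 at the high end, for Cdt1, and to -1.21 at the low end, for Pola1.

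Of the 10 libraries, 3 held under 1000000 counts, namely SF_HFD library 5 with 727610, SF_CD library 1 with 499774 and SF_CD library 5 with 523601, and the others held 3648783 to 12841275. In SF_CD library 1, 10 of the 50 members had no count, and 33 members had their lowest value of the 10 libraries. There 3 counts equal a normalised level (CPM) of 6.76 in each 1000000 counts, and the exact 95% Poisson interval of 0 counts reaches 8.32 CPM. For 18 members the exact 95% Poisson interval in that library, which covers counting error only, lay below the values of all 7 deeper libraries, against 1 member in SF_CD library 5 and 0 in SF_HFD library 5. The shares of all genes beside these counts are not given here. In SF_CD library 1 the median of log2 CPM minus the gene's mean was -0.55 over all genes tested and -1.38 over the members. Ribosomal RNA took 22.0% of the counts of SF_CD library 1 and 14.5% of those of SF_CD library 5, against 2.08% to 7.19% in the other 8, and Malat1, a nuclear long non-coding RNA, took 12.1% in SF_CD library 1 against 0.409% to 1.66% in the others. Fold changes and ratios are therefore given also for the 7 libraries of at least 1000000 counts, 4 of SF_HFD and 3 of SF_CD.

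In the 7 deeper libraries the members lay mostly lower in SF_HFD, still without a call. The log2 fold change was negative for 41 of 50 members (82%), against 47.4% of all genes tested, with a median of -0.48 against 0.04. No member passed an adjusted p of 0.05 (edgeR, 12653 genes), where 0.126% of all genes were called higher and 0.079% lower. The lowest edgeR adjusted p was 0.155, for Gins2. At an unadjusted p under 0.05 stood 15 members, all lower in SF_HFD, which is 30% of the members against 7.97% of all genes, and none on the higher side, against 8.56%. Groups that did not overlap were seen on the lower side for 12 members (24%), namely Chaf1b, Fen1, Gins1, Gins2, Lig1, Pole2, Prim1, Rfc4, Rpa2, Tipin, Tyms and Wdr76, against 9.36% of all genes. On the higher side they were seen for Cdt1 alone (2%), against 9.29%. The members share libraries, so these counts are not independent observations. Without SF_HFD library 2 as well, a choice made after seeing the data, 47 of the 50 log2 fold changes were negative (94%), against 48.7% of all genes tested. The median was then -0.62 against 0.02, and the lowest edgeR adjusted p was 0.110. In bulk RNA, fewer cells in S phase and less replication RNA per cell cannot be told apart.

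**Figure D1:**
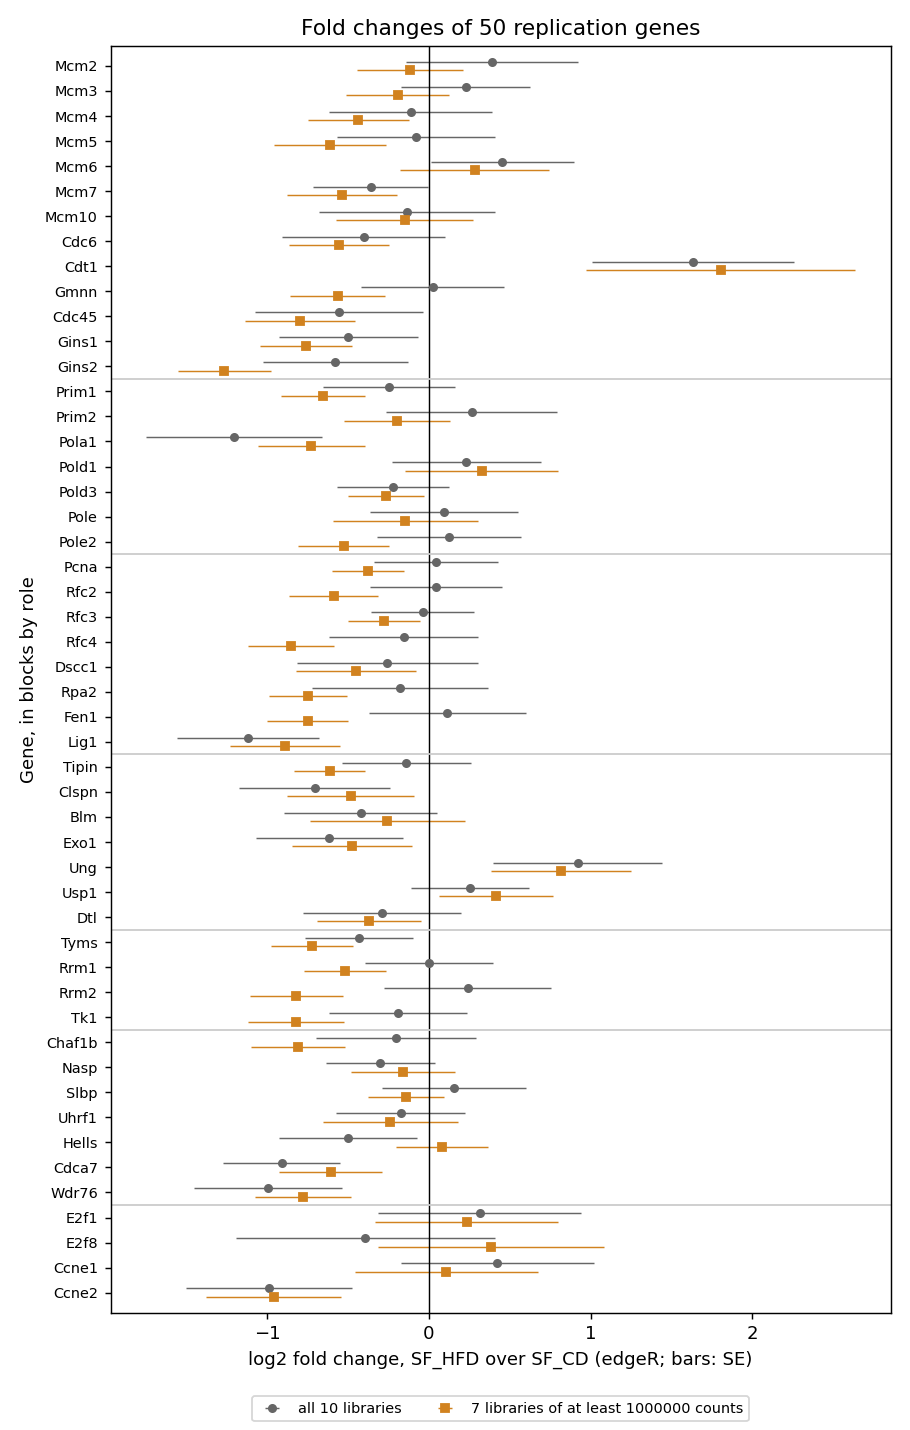
Log2 fold change of the 50 replication genes, SF_HFD over SF_CD, from edgeR, for all 10 libraries (circles) and for the 7 of at least 1000000 counts (squares), in blocks by role. Bars are standard errors derived from the F statistic of the test. Of the circles 31 lie left of 0, and of the squares 41.

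The library with the highest value differed among members, though within a diet they moved partly together. SF_HFD library 2 or 5 was the highest of SF_HFD for 44 of the 50, and SF_CD library 1 the lowest of SF_CD for 41. SF_HFD library 2 had the highest value of the 10 for 12 members, among them Mcm2, Mcm4, Mcm6, Cdt1, Uhrf1, E2f1 and Ccne1. SF_CD library 5 was highest for 14, among them Cdc6, Pola1, Lig1, Clspn, Cdca7, E2f8 and Ccne2, and SF_CD library 2 for 13, among them Mcm5, Mcm7, Pcna, Rfc4, Tipin and Tk1. SF_HFD library 5 was highest for 7, among them Mcm3, Gmnn, Fen1 and Rrm2, and SF_CD library 4 for 4, Gins1, Gins2, Rfc3 and Tyms. Summed over the 50 members, the level was lowest at 1820 CPM, with a median of 2338 and a highest value of 3280 CPM, in SF_HFD, and in SF_CD the lowest was 1156, the median 3172 and the highest 3508 CPM. The groups overlap in this sum. Among the deeper libraries, a range over 2-fold was found for 27 members in SF_HFD (4 libraries) and for 7 in SF_CD (3 libraries), and the median member ranged 2.15-fold in SF_HFD and 1.44-fold in SF_CD.

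**Figure D2:**
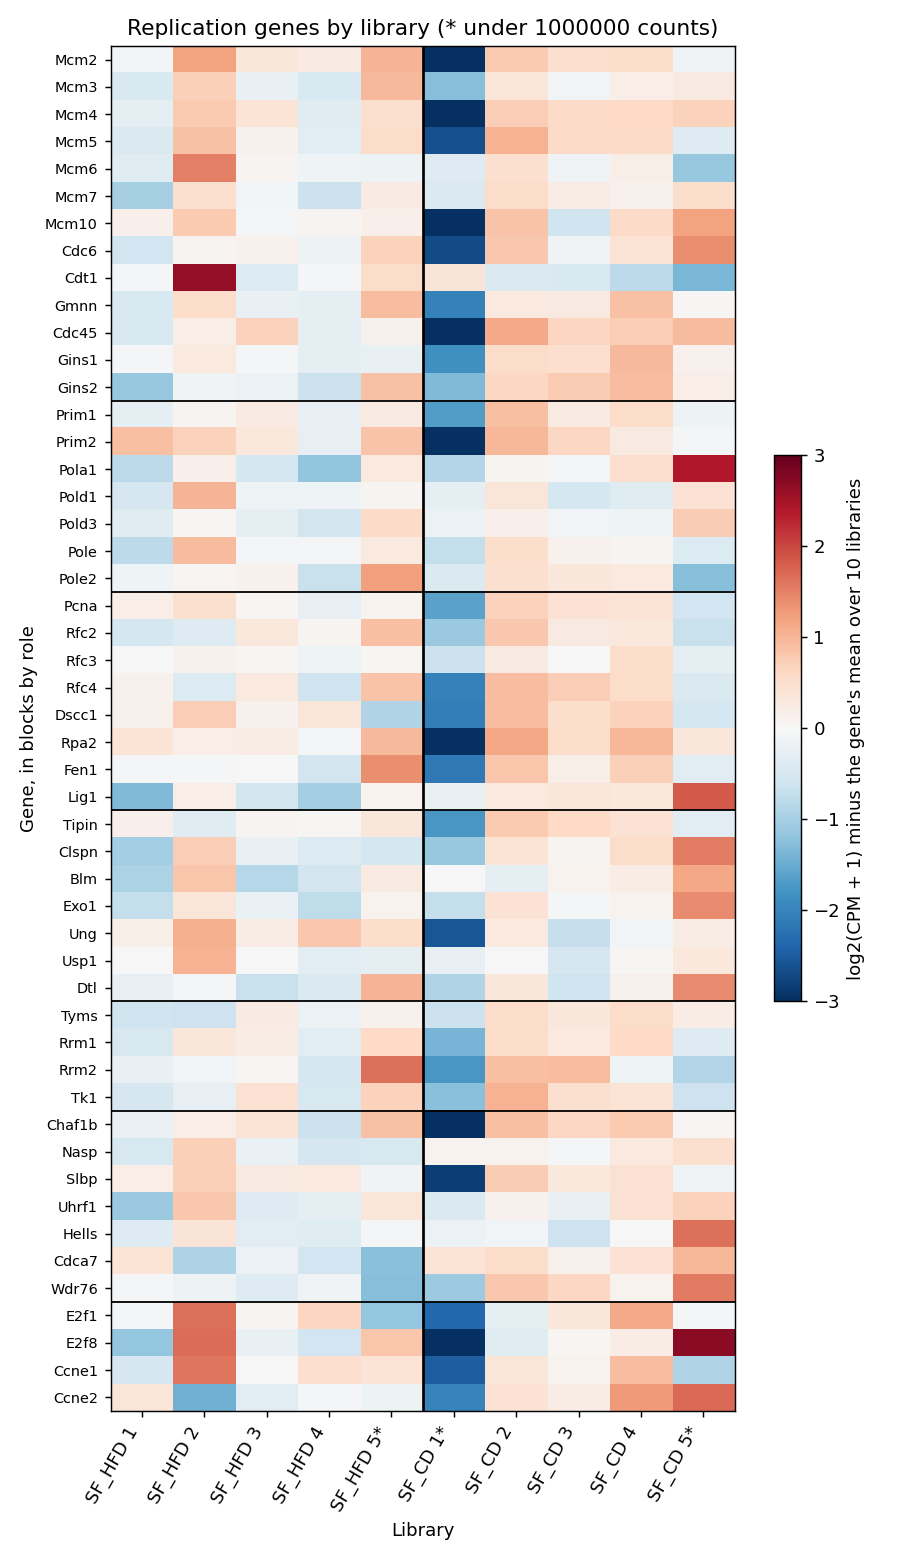
Log2(CPM + 1) of each of the 50 replication genes minus its mean over the 10 libraries, by library, with SF_HFD left of SF_CD, in blocks by role. The column of SF_CD library 1 is lowest for 33 genes, and those of SF_HFD library 2 and SF_CD library 5 are highest for 12 and 14.

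Promoters of the members share short words that E2F factors are known to bind, and these are shown because shared transcription at G1/S is what the genes are grouped for in textbooks. RefSeq windows from 250 bases before to 50 after the start (build GRCm38.p6) were at hand for 38 of the 50 members, in 44 windows. The E2F words searched on either strand were TTTCGCGC, TTTGGCGC, TTTCCCGC and TTTGCCGC, and words that overlap each other were counted separately. At least 1 was found for 17 of the 38 members (44.7%, exact 95% binomial interval 28.6% to 61.7%), against 2.61% of 27025 genes with a window. The 17 are Cdc6, Cdca7, Cdt1, Clspn, Dtl, Hells, Lig1, Mcm3, Mcm5, Mcm6, Mcm7, Pola1, Pold1, Pold3, Pole2, Rfc3 and Uhrf1. CCAAT, the word of the factor NF-Y, was found for 55.3% of the 38 against 41.1% of all, and the cell cycle homology words TTTGAA and TTCGAA for 21.1% against 21.7%. The members' windows also had a median of 59.2% G and C against 52.7% in all windows, and 21 CpG against 7, so the E2F words, which hold CG, are not compared at matched base composition. The 8 stretches of 60 bases below lie wholly before the RefSeq start of their window. By GENCODE M21 those of Mcm7, Cdc6 and Uhrf1 lie inside the annotated gene, and those of Hells and Cdca7 reach into it. Mcm7 and Uhrf1 also have a further window. E2F words are in capitals, and a capital run that begins with G is the reverse complement of a word. The stretches run 5′ to 3′ on the strand of the gene. Their places are Mcm5 at chr8:75109332-75109391 on the plus strand, Mcm6 at chr1:128359780-128359839 on the minus strand, Mcm7 at chr5:138172015-138172074 on the minus strand, Cdc6 at chr11:98907987-98908046 on the plus strand, Pola1 at chrX:93632260-93632319 on the minus strand, Hells at chr19:38930902-38930961 on the plus strand, Cdca7 at chr2:72476122-72476181 on the plus strand and Uhrf1 at chr17:56304102-56304161 on the plus strand.
Mcm5: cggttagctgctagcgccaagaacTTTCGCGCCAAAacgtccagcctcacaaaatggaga
Mcm6: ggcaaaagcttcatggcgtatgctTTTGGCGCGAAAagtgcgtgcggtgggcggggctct
Mcm7: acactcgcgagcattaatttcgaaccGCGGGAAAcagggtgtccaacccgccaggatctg
Cdc6: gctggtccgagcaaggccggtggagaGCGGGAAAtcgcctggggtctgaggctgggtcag
Pola1: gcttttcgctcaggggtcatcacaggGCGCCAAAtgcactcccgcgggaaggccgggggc
Hells: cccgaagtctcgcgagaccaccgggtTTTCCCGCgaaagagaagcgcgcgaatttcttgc
Cdca7: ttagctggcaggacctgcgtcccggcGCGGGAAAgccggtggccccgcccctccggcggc
Uhrf1: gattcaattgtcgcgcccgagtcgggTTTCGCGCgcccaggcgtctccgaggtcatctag
In Mcm5 and in Mcm6 a word on each strand overlap in 1 longer run of capitals. The first matches of the other 9 members began between base -10 and base 39, with the start base as 0. That of Cdt1 began at base 32 and that of Lig1 at base 26, those of Mcm3 at bases 19 and 38 and those of Rfc3 at bases -10 and 0. The 17 members with an E2F word had a median log2 fold change of -0.22, against -0.16 for the 21 without one, and in the 7 deeper libraries -0.37 against -0.52. A match is a description of letters and no evidence of binding. Mcm4, Tipin, Ccne2, Gins1, Prim2, Gmnn, Pole, Gins2, Exo1, Rfc2, Usp1 and Dscc1 were not analysed here for promoter words.

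**Figure D3:**
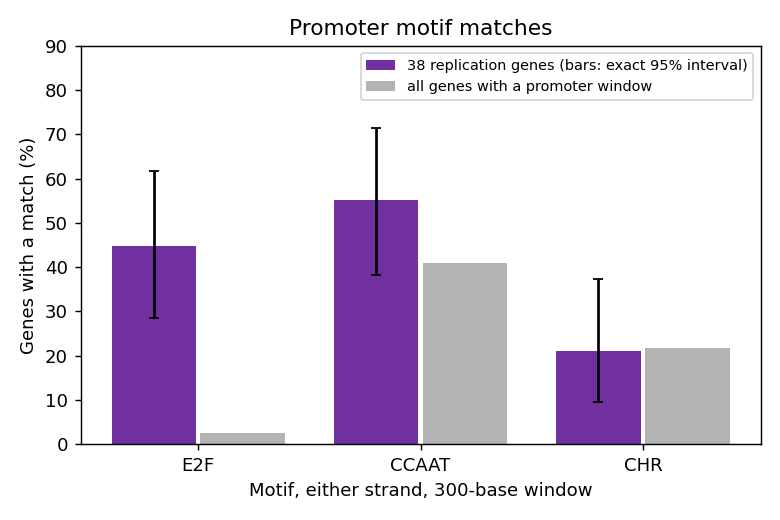
Percent of genes with a match to each motif on either strand of the 300-base window, for the 38 replication genes with a window (exact 95% binomial interval as bars) and for all 27025 genes with a window. E2F words stand at 44.7% against 2.61%, CCAAT at 55.3% against 41.1% and the cell cycle homology words (CHR) at 21.1% against 21.7%.

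Of the 13 licensing and helicase genes, none was called, 8 had a negative log2 fold change in the 10 libraries (median -0.11) and 11 in the 7 deeper ones (median -0.54). Mcm2, Mcm3, Mcm4, Mcm5, Mcm6 and Mcm7 are the subunits of the helicase that unwinds DNA, and Mcm10 helps to start it. Mcm7 had 49.9, 139, 94.8, 63.8 and 119 CPM in SF_HFD libraries 1 to 5, against 74.4, 149, 118, 109.6 and 144 CPM in SF_CD libraries 1 to 5. The groups overlap, with SF_HFD libraries 1 and 4 lowest. For Mcm7 the log2 fold change was -0.36 ± 0.36 (SE, edgeR adjusted p 0.745), and -0.54 ± 0.34 in the 7 deeper libraries (edgeR adjusted p 0.442). For this gene 26.8% of its 31-base words also occur in other genes, chiefly Gm5487, and an exon overlaps Ap4m1 and Cops6 on the opposite strand, so its counts are uncertain. Mcm6 had 20.6, 79.0, 28.7, 24.7 and 24.0 CPM in SF_HFD libraries 1 to 5, against 20.3, 37.8, 24.9, 30.6 and 11.7 CPM in SF_CD libraries 1 to 5. SF_HFD library 2 stands above all others and the remaining values of the groups overlap. For Mcm6 the log2 fold change was 0.45 ± 0.44 (SE, edgeR adjusted p 0.742), and 0.28 ± 0.46 in the 7 deeper libraries (edgeR adjusted p 0.776). Mcm2, Mcm3, Mcm4, Mcm5 and Mcm10 had log2 fold changes of -0.13 to 0.39 in the 10 libraries and of -0.61 to -0.12 in the 7 deeper ones.

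Cdt1 and Gmnn act against each other at origins. Cdt1 loads the helicase. Cdt1 had 11.2, 78.6, 8.51, 11.2 and 17.7 CPM in SF_HFD libraries 1 to 5, against 15.8, 8.48, 8.27, 6.37 and 3.89 CPM in SF_CD libraries 1 to 5. SF_HFD library 2 was far above every other library. Among the 7 deeper libraries the lowest SF_HFD value and the highest SF_CD value were nearly the same. For Cdt1 the log2 fold change was 1.63 ± 0.62 (SE, edgeR adjusted p 0.323), and 1.80 ± 0.83 in the 7 deeper libraries (edgeR adjusted p 0.321). Without SF_HFD library 2 and the 3 shallow libraries the log2 fold change was 0.42 ± 0.29 (SE, edgeR adjusted p = 0.492). Geminin, the product of Gmnn, binds and inhibits Cdt1. Gmnn had 61.5, 126, 72.2, 70.7 and 162 CPM in SF_HFD libraries 1 to 5, against 20.3, 105, 103, 157 and 87.6 CPM in SF_CD libraries 1 to 5. SF_HFD library 5 and SF_CD library 4 were high, SF_CD library 1 was low, and the groups overlap. For Gmnn the log2 fold change was 0.02 ± 0.44 (SE, edgeR adjusted p 0.990), and -0.56 ± 0.29 in the 7 deeper libraries (edgeR adjusted p 0.360). Cdc6 loads the helicase with Cdt1, and Cdc45, Gins1 and Gins2 complete the active helicase. Of these Gins2, chosen for a full account after its values were seen, had the lowest edgeR adjusted p of any member in the deeper libraries. Gins2 had 15.5, 33.0, 30.99, 22.4 and 65.7 CPM in SF_HFD libraries 1 to 5, against 13.5, 54.5, 60.1, 68.1 and 40.9 CPM in SF_CD libraries 1 to 5. Every deep SF_HFD library lay below every deep SF_CD library, while SF_HFD library 5 was among the highest. For Gins2 the log2 fold change was -0.58 ± 0.45 (SE, edgeR adjusted p 0.661), and -1.26 ± 0.29 in the 7 deeper libraries (edgeR adjusted p 0.155). An exon of Gins2 overlaps Gse1 on the opposite strand. Cdc6, Cdc45 and Gins1 had log2 fold changes of -0.40, -0.56 and -0.50 in the 10 libraries and of -0.56, -0.80 and -0.76 in the 7 deeper ones.

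The 7 genes of polymerases and primase gave 3 negative log2 fold changes in the 10 libraries (median 0.09) and 6 in the 7 deeper ones (median -0.27), with none called. Pola1 is the catalytic subunit of polymerase alpha, which extends the primer. Pola1 had 28.7, 56.5, 34.4, 21.4 and 61.9 CPM in SF_HFD libraries 1 to 5, against 27.1, 52.9, 48.9, 72.2 and 269 CPM in SF_CD libraries 1 to 5. SF_CD library 5 was far above every other library, and the groups overlap. For Pola1 the log2 fold change was -1.21 ± 0.54 (SE, edgeR adjusted p 0.399), and -0.73 ± 0.33 in the 7 deeper libraries (edgeR adjusted p 0.312). Pold3 is an accessory subunit of polymerase delta, which copies the lagging strand. Pold3 had 33.4, 44.9, 36.0, 29.1 and 64.4 CPM in SF_HFD libraries 1 to 5, against 38.3, 48.3, 41.1, 39.8 and 74.0 CPM in SF_CD libraries 1 to 5. The groups overlap, with the highest values in SF_HFD library 5 and SF_CD library 5. For Pold3 the log2 fold change was -0.22 ± 0.35 (SE, edgeR adjusted p 0.859), and -0.27 ± 0.24 in the 7 deeper libraries (edgeR adjusted p 0.578). Prim1 and Prim2, the primase subunits, had log2 fold changes of -0.25 and 0.26, and -0.65 and -0.20 in the deeper libraries. Pold1, the catalytic subunit of polymerase delta, and Pole and Pole2, subunits of the leading strand polymerase epsilon, had log2 fold changes of 0.23, 0.09 and 0.12 in the 10 libraries and of 0.33, -0.15 and -0.53 in the deeper ones.

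Among the 8 genes of the clamp, its loaders and the lagging strand, 5 had a negative log2 fold change in the 10 libraries (median -0.10) and all 8 in the 7 deeper ones (median -0.67), with none called. Pcna is the sliding clamp. Pcna had 271, 327, 246, 199 and 253 CPM in SF_HFD libraries 1 to 5, against 76.6, 381, 317, 314 and 158 CPM in SF_CD libraries 1 to 5. SF_CD libraries 1 and 5 were the lowest, and SF_CD library 2 the highest. For Pcna the log2 fold change was 0.04 ± 0.38 (SE, edgeR adjusted p 0.982), and -0.37 ± 0.22 in the 7 deeper libraries (edgeR adjusted p 0.412). Of its 31-base words 23.3% occur in other genes, chiefly the pseudogene Pcna-ps2. Rfc4 is a subunit of the clamp loader. Rfc4 had 84.3, 57.8, 95.1, 50.3 and 140.2 CPM in SF_HFD libraries 1 to 5, against 18.0, 147, 128, 114 and 56.5 CPM in SF_CD libraries 1 to 5. The deeper SF_HFD libraries all lay below the deeper SF_CD libraries, while SF_HFD library 5 was high and SF_CD libraries 1 and 5 were low. For Rfc4 the log2 fold change was -0.16 ± 0.46 (SE, edgeR adjusted p 0.934), and -0.85 ± 0.27 in the 7 deeper libraries (edgeR adjusted p 0.192). Lig1, the ligase that joins the fragments of the lagging strand, had the second lowest log2 fold change of all members. Lig1 had 44.4, 130.4, 76.2, 54.9 and 121 CPM in SF_HFD libraries 1 to 5, against 96.9, 138, 145, 140.4 and 409 CPM in SF_CD libraries 1 to 5. SF_CD library 5 was far above the others, and the deeper SF_HFD libraries all lay below the deeper SF_CD libraries. For Lig1 the log2 fold change was -1.12 ± 0.44 (SE, edgeR adjusted p 0.333), and -0.89 ± 0.34 in the 7 deeper libraries (edgeR adjusted p 0.248). Rfc2 and Rfc3 are further loader subunits, Dscc1 belongs to an alternative loader, Rpa2 coats single-stranded DNA and Fen1 cuts flaps. These had log2 fold changes of -0.26 to 0.11 in the 10 libraries and of -0.75 to -0.28 in the deeper ones.

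**Figure D4:**
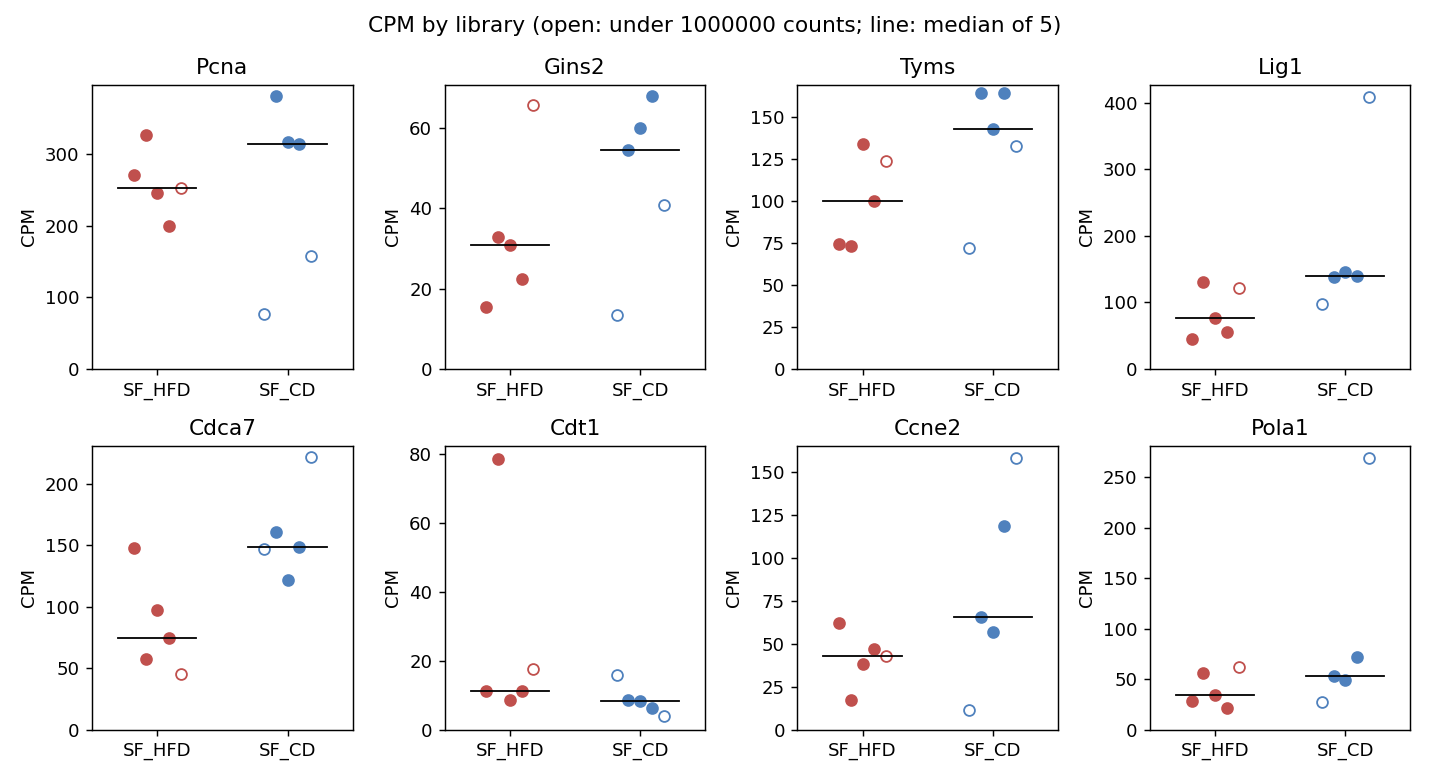
CPM of 8 replication genes by library, SF_HFD left of SF_CD, with open points for libraries under 1000000 counts and a line at the median of the 5 libraries. The open SF_CD points are often the lowest or highest of their group, as for Pola1 with 27.1 CPM in library 1 and 269 CPM in library 5.

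Of the 7 genes of fork protection and repair, 5 had a negative log2 fold change in either set of libraries (median -0.29 in the 10 and -0.37 in the 7), with none called. Tipin stabilises paused forks. Tipin had 87.3, 60.6, 82.9, 79.8 and 98.5 CPM in SF_HFD libraries 1 to 5, against 22.5, 134, 117, 105 and 62.3 CPM in SF_CD libraries 1 to 5. The deeper SF_HFD libraries lay below the deeper SF_CD libraries, and SF_CD library 1 was lowest. For Tipin the log2 fold change was -0.14 ± 0.40 (SE, edgeR adjusted p 0.930), and -0.61 ± 0.22 in the 7 deeper libraries (edgeR adjusted p 0.230). Clspn, claspin, carries the checkpoint signal from stalled forks. Clspn had 12.3, 43.8, 22.1, 19.4 and 17.7 CPM in SF_HFD libraries 1 to 5, against 11.3, 35.2, 27.5, 38.7 and 77.9 CPM in SF_CD libraries 1 to 5. SF_CD library 5 was highest and SF_CD library 1 lowest. For Clspn the log2 fold change was -0.71 ± 0.47 (SE, edgeR adjusted p 0.588), and -0.48 ± 0.39 in the 7 deeper libraries (edgeR adjusted p 0.546). Ung, a glycosylase that removes uracil from DNA, had the second highest log2 fold change of all members. Ung had 5.70, 11.3, 5.92, 9.36 and 7.58 CPM in SF_HFD libraries 1 to 5, against 0, 6.28, 2.66, 4.63 and 5.84 CPM in SF_CD libraries 1 to 5. Values were low throughout, and 3 counts correspond to 6.76 CPM in SF_CD library 1 and 5.84 CPM in SF_CD library 5. For Ung the log2 fold change was 0.92 ± 0.52 (SE, edgeR adjusted p 0.519), and 0.82 ± 0.43 in the 7 deeper libraries (edgeR adjusted p 0.367). The helicase Blm, the nuclease Exo1 and Dtl, a ubiquitin ligase subunit that directs the destruction of Cdt1, had log2 fold changes of -0.42, -0.62 and -0.29, and -0.26, -0.47 and -0.37 in the deeper libraries. Usp1, which removes ubiquitin from Pcna, had 0.25 and 0.41, and shares 31.6% of its words with other genes, chiefly Gm5841.

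The 4 genes of nucleotide supply were split in the 10 libraries, with 2 negative log2 fold changes and a median of -0.09, and all 4 were negative in the 7 deeper ones, with a median of -0.77. None was called in either. Tyms, thymidylate synthase, makes the thymidine nucleotide. Tyms had 74.4, 73.3, 134, 99.7 and 124 CPM in SF_HFD libraries 1 to 5, against 72.1, 164, 143, 164 and 132 CPM in SF_CD libraries 1 to 5. SF_CD library 1 was lowest, and the deeper SF_HFD libraries all lay below the deeper SF_CD libraries. For Tyms the log2 fold change was -0.43 ± 0.33 (SE, edgeR adjusted p 0.656), and -0.72 ± 0.25 in the 7 deeper libraries (edgeR adjusted p 0.227). Rrm2 is the regulated subunit of ribonucleotide reductase, which makes deoxynucleotides. Rrm2 had 92.2, 102, 112, 75.9 and 339 CPM in SF_HFD libraries 1 to 5, against 31.6, 201, 204, 98.7 and 58.4 CPM in SF_CD libraries 1 to 5. SF_HFD library 5 was highest and SF_CD library 1 lowest, with SF_CD libraries 2 and 3 above the deeper SF_HFD libraries. For Rrm2 the log2 fold change was 0.24 ± 0.52 (SE, edgeR adjusted p 0.905), and -0.82 ± 0.29 in the 7 deeper libraries (edgeR adjusted p 0.225). The direction of Rrm2 thus differed between the sets of libraries. Rrm1, the large subunit, and Tk1, thymidine kinase of the salvage pathway, had log2 fold changes of 0.00 and -0.19 in the 10 libraries and of -0.52 and -0.82 in the deeper ones.

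The 7 genes of chromatin assembly and maintenance gave 6 negative log2 fold changes in either set (median -0.30 in the 10 libraries and -0.24 in the 7), with none called. Cdca7 acts with the remodeller Hells on heterochromatin. Cdca7 had 148, 57.2, 97.5, 74.2 and 45.5 CPM in SF_HFD libraries 1 to 5, against 147, 161, 121, 148 and 222 CPM in SF_CD libraries 1 to 5. SF_HFD library 1 was within the range of SF_CD and the other SF_HFD libraries were below it. For Cdca7 the log2 fold change was -0.91 ± 0.36 (SE, edgeR adjusted p 0.341), and -0.61 ± 0.32 in the 7 deeper libraries (edgeR adjusted p 0.362). Hells is a chromatin remodeller needed for DNA methylation. Hells had 40.8, 70.5, 42.9, 41.2 and 51.8 CPM in SF_HFD libraries 1 to 5, against 47.3, 50.4, 34.6, 53.1 and 171 CPM in SF_CD libraries 1 to 5. SF_CD library 5 was far above the others, which overlap. For Hells the log2 fold change was -0.50 ± 0.43 (SE, edgeR adjusted p 0.699), and 0.08 ± 0.28 in the 7 deeper libraries (edgeR adjusted p 0.903). Wdr76 encodes a WD repeat protein. Wdr76 had 10.1, 9.45, 7.86, 9.74 and 3.79 CPM in SF_HFD libraries 1 to 5, against 4.51, 19.4, 17.0, 11.5 and 33.1 CPM in SF_CD libraries 1 to 5. SF_CD library 5 was highest, SF_HFD library 5 lowest, and the deeper libraries did not overlap. For Wdr76 the log2 fold change was -0.995 ± 0.46 (SE, edgeR adjusted p 0.409), and -0.78 ± 0.30 in the 7 deeper libraries (edgeR adjusted p 0.246). Chaf1b, a subunit of the chromatin assembly factor, the histone chaperone Nasp, Slbp, which binds histone mRNA, and Uhrf1, which guides maintenance methylation, had log2 fold changes of -0.30 to 0.15 in the 10 libraries. In the deeper ones Chaf1b stood at -0.81, and the other 3 at -0.24 to -0.14.

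The 4 G1/S regulators gave 2 negative log2 fold changes in the 10 libraries (median -0.04) and 1 in the 7 deeper ones (median 0.17), with none called. Ccne1 and Ccne2 are the E cyclins, which activate Cdk2 at the start of S phase. Ccne2 had 61.8, 17.1, 38.2, 46.8 and 42.9 CPM in SF_HFD libraries 1 to 5, against 11.3, 65.2, 56.9, 119 and 158 CPM in SF_CD libraries 1 to 5. SF_CD libraries 4 and 5 were highest and SF_CD library 1 lowest. For Ccne2 the log2 fold change was -0.99 ± 0.51 (SE, edgeR adjusted p 0.469), and -0.96 ± 0.42 in the 7 deeper libraries (edgeR adjusted p 0.289). An exon of Ccne2 overlaps Ints8 on the opposite strand. Ccne1 had 2.90, 15.9, 4.53, 6.79 and 6.32 CPM in SF_HFD libraries 1 to 5, against 0, 6.06, 4.90, 9.49 and 1.95 CPM in SF_CD libraries 1 to 5. SF_HFD library 2 was highest and SF_CD library 1 had no count. For Ccne1 the log2 fold change was 0.42 ± 0.60 (SE, edgeR adjusted p 0.840), and 0.11 ± 0.56 in the 7 deeper libraries (edgeR adjusted p 0.937). E2f1, an activator of replication genes, and E2f8, a repressor among the E2F factors, had log2 fold changes of 0.32 and -0.39, and 0.24 and 0.39 in the deeper libraries. Both were highest in a single library, E2f1 at 15.0 CPM in SF_HFD library 2 and E2f8 at 58.4 CPM in SF_CD library 5.

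Over the 10 libraries, the diets did not differ beyond the spread between libraries in 4 ratios of partners. There the exact two-sided permutation test ran over 252 arrangements, with Benjamini-Hochberg adjustment over the 4. The log2 ratio of Ccne1 to Ccne2 averaged -2.57 ± 1.52 in SF_HFD and -4.39 ± 1.28 in SF_CD (SD, n = 5 each), a difference of 1.82 (exact permutation p = 0.0873, adjusted 0.349), and of 0.95 in the 7 deeper libraries (exact permutation p = 0.514, adjusted 0.686). Ccne1 had 0 counts in SF_CD library 1 and 1 in SF_CD library 5. With a prior count of 5 their ratios moved from -5.35 and -6.15 to -4.08 and -5.90, and the difference to 1.55. The log2 ratio of Cdt1 to Gmnn averaged -2.39 ± 1.004 in SF_HFD and -3.30 ± 1.71 in SF_CD, a difference of 0.91 (exact permutation p = 0.333, adjusted 0.444), and of 1.72 in the 7 deeper libraries (exact permutation p = 0.0571, adjusted 0.229). Prim1 to Pola1, a primase to polymerase ratio, differed by 0.89 (exact permutation p = 0.214, adjusted 0.429), by 0.36 without SF_CD library 5 and by 0.15 in the 7 deeper libraries (exact permutation p = 0.686, adjusted 0.686). Rrm2 to Rrm1 differed by 0.23 (exact permutation p = 0.563, adjusted 0.563), and by -0.20 in the 7 deeper libraries (exact permutation p = 0.629, adjusted 0.686). Without SF_CD library 1 the difference for Cdt1 to Gmnn was 1.65 (exact permutation p = 0.0159, adjusted 0.0635), and without SF_HFD library 1 that for Ccne1 to Ccne2 was 2.25 (exact permutation p = 0.0159, adjusted 0.0635). These are the lowest adjusted values over the settings run, and both p-values are the smallest possible with 1 library left out. In the 7 deeper libraries the exact permutation p of 0.0571 for Cdt1 to Gmnn is the smallest possible with 4 against 3 libraries. The ratios of Cdt1 to Gmnn did not overlap there, at -3.04 to -0.68 in SF_HFD against -4.57 to -3.58 in SF_CD. No ratio could pass the threshold used here in those 7 libraries. A failure to pass there is therefore no sign that the diets were alike.

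Per kilobase of the median annotated transcript, Pcna had the highest level of the 50 members, at 314 ± 56.1 CPM per kilobase in SF_HFD and 302 ± 154 in SF_CD (SD, n = 5 each). Next came Tipin, Cdca7, Tyms, Rrm2, Rrm1, Mcm7, Gmnn, Tk1 and Ccne2, whose neighbours in this order differed by less than the larger of their SDs, and the lowest were E2f1, Dscc1 and Ung. By the longest transcript Pcna was again highest, followed by Gmnn, Rfc4, Rrm2 and Cdca7, and 7 of the 10 highest genes were shared between the orders. Cdca7 stood at 137 ± 65.9 CPM per kilobase of the median transcript in SF_HFD and 260 ± 61.2 in SF_CD, and Ccne2 at 77.3 ± 30.3 and 153 ± 107.

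Other genes of the cell cycle were read beside the members, and none of them passed the edgeR test in the 10 libraries. Of 55 other replication genes, 0 were called, 29 had a negative log2 fold change and the median was -0.03, against -0.19 in the 7 deeper libraries. In the deeper libraries without SF_HFD library 2, a choice made after seeing the data, 45 of the 55 were negative. Their median was then -0.47, and 48.7% of all genes tested were negative. At an unadjusted p under 0.05 in either direction (edgeR) stood 6 in the 10 libraries, against 4.92% of all genes on the higher side and 6.73% on the lower. In the deeper ones 7 stood there, against 8.56% on the higher side and 7.97% on the lower. The most abundant per kilobase of the median transcript were Dctpp1, which clears unusual nucleotides, Rrm2b, a further reductase subunit, and Rpa3, which binds single-stranded DNA. By the longest transcript Dctpp1 and Rpa3 were still highest. Rrm2b then had 29.1 CPM per kilobase, below Pold4 at 87.7 and Rnaseh2c at 56.5 among others. Dctpp1 had a log2 fold change of 0.14 ± 0.45 in the 10 libraries and -0.42 ± 0.22 in the deeper ones (SE, edgeR adjusted p 0.942 and 0.360). Rrm2b had a log2 fold change of -0.20 ± 0.32 in the 10 libraries and -0.37 ± 0.27 in the deeper ones (SE, edgeR adjusted p 0.857 and 0.501). Rpa3 had a log2 fold change of 0.13 ± 0.37 in the 10 libraries and -0.33 ± 0.21 in the deeper ones (SE, edgeR adjusted p 0.930 and 0.438). The signs of Dctpp1 and Rpa3 thus differed between the sets of libraries. Of 30 genes of G2 and mitosis 0 were called by edgeR. At an unadjusted p under 0.05 stood 10 of them in the 10 libraries, all lower in SF_HFD, against 6.73% of all genes on that side, and 15 in the deeper ones, all lower, against 7.97%. DESeq2 called 4 of the 30, against 2.53% of all genes, and limma-voom with sample quality weights 3, against 1.47%. Their log2 fold change was negative for 27, with a median of -0.55, and for 28 with a median of -0.70 in the 7 deeper libraries. In the deeper libraries without SF_HFD library 2 it was negative for all 30, with a median of -0.96. The most abundant per kilobase of the median transcript were Hmgb2, a chromatin protein, Top2a, a topoisomerase that untangles chromosomes, and Cenpe, a kinetochore motor. By the longest transcript Hmgb2 and Top2a were still highest. Cenpe then had 23.7 CPM per kilobase, below Ccnb1 at 86.4 and Birc5 at 65.1 among others. Hmgb2 had a log2 fold change of -0.21 ± 0.35 in the 10 libraries and -0.33 ± 0.28 in the deeper ones (SE, edgeR adjusted p 0.871 and 0.566). Top2a had a log2 fold change of -1.06 ± 0.42 in the 10 libraries and -0.50 ± 0.44 in the deeper ones (SE, edgeR adjusted p 0.340 and 0.578). Cenpe had a log2 fold change of -1.14 ± 0.43 in the 10 libraries and -0.34 ± 0.36 in the deeper ones (SE, edgeR adjusted p 0.318 and 0.644). The last 2 lay closer to 0 without the shallow libraries. Without SF_HFD library 2 as well, Top2a stood at -1.08 ± 0.23 and Cenpe at -0.71 ± 0.27 (SE). Top2a stood at 171, 642, 259, 208 and 336 CPM in SF_HFD libraries 1 to 5, against 879, 478, 340, 534 and 1145 CPM in SF_CD libraries 1 to 5. In SF_CD library 1, where most members were lowest, Top2a was thus second highest. The genes of G2 and mitosis were mixed in that library. Cenpe was also second highest, at 417 CPM, while Hmgb2 had its lowest value there, at 282 CPM. The median over the 30 of log2 CPM minus the gene's mean was -0.57 there. Of 16 cyclin D, CDK inhibitor and pocket protein genes 0 were called. At an unadjusted p under 0.05 in either direction (edgeR) stood 1 in the 10 libraries and 4 in the deeper ones, beside the same shares of all genes. The median log2 fold change of the 16 was -0.34, and 0.20 in the 7 deeper libraries. The most abundant per length were the D cyclins Ccnd2 and Ccnd1 and their kinase Cdk4. Ccnd2 had a log2 fold change of -0.42 ± 0.62 in the 10 libraries and 0.73 ± 0.68 in the deeper ones (SE, edgeR adjusted p 0.849 and 0.607). Ccnd1 had a log2 fold change of -0.64 ± 0.52 in the 10 libraries and 0.92 ± 0.21 in the deeper ones (SE, edgeR adjusted p 0.677 and 0.155). Cdk4 had a log2 fold change of -0.46 ± 0.40 in the 10 libraries and -0.85 ± 0.23 in the deeper ones (SE, edgeR adjusted p 0.707 and 0.164). The signs of both cyclins thus differed between the sets of libraries. In the deeper ones the groups did not overlap for Ccnd1, on the higher side, and Cdk4, on the lower, against 9.29% and 9.36% of all genes.

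**Figure D5:**
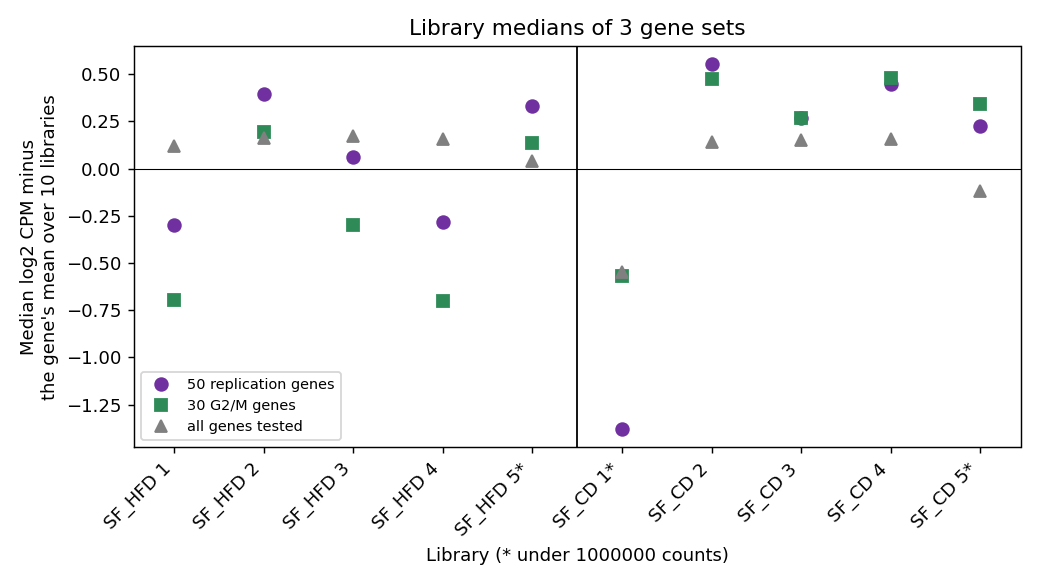
Median over the genes of each set of log2 CPM minus the gene's mean over the 10 libraries, by library, for the 50 replication genes (circles), the 30 genes of G2 and mitosis (squares) and all genes tested (triangles). SF_CD library 1 stands at -1.38 for the replication genes and -0.57 for the genes of G2 and mitosis, against -0.55 for all genes.

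Markers of epithelial and of other cells were read beside the members. The 10 epithelial markers summed to 4531 to 10954 CPM in SF_HFD and 2346 to 6332 CPM in SF_CD, and none was at 0 in all libraries. The 15 smooth muscle and fibroblast markers summed to 251 to 393 CPM in SF_HFD and 33.1 to 177 CPM in SF_CD. Called higher in SF_HFD were 3 of 12 tested, Acta2, Actg2 and Myl9, against 0.153% of all genes (edgeR). In the 7 deeper libraries 2 of 13 were called higher, Myl9 and Col1a2, against 0.126%. The 14 immune markers summed to 18.7 to 49.6 CPM in SF_HFD and 35.2 to 117 CPM in SF_CD, with Cd3e and Cd3g at 0 in all 10 libraries. Of 4 tested 1 was called lower, Fcer1g, against 0.17% of all genes (edgeR). In the deeper libraries 1 of 5 was called lower, Lyz2, against 0.079%. The 6 endothelial markers summed to 1.26 to 4.30 CPM in SF_HFD and 3.97 to 33.8 CPM in SF_CD. Their part in the levels of the replication genes was not tested.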

How the data were processed

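Libraries were poly(A)-selected and directional, per the labels' protocols. The authors deposited estimated counts per gene as whole numbers, made with Salmon 1.3.0. The submitters' processing notes name that tool and the build mm10. Neither annotation nor strand setting is given in the sources used here. Columns were matched to samples by the library name in the description. The 50 members and the other lists were chosen with earlier results of these data known.

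Counts of the 10 serine-free libraries (499774 to 12841275 in total) were fitted with edgeR 4.0.16 (robust quasi-likelihood, TMM, filterByExpr) in R 4.3.3, with Benjamini-Hochberg adjustment over 11780 genes and a threshold of 0.05. The test was tried on simulated counts. Since it gives no SE, each edgeR SE was the absolute log2 fold change divided by the square root of the F statistic. CPM are TMM-normalised, and ratios had a prior count of 2. Of the rows, 1243 carry no symbol, and they were kept in the fit. All 50 members passed the filter. The fit was repeated with upper quartile and RLE normalization, without a filter, with a stricter filter (at least 2 CPM in 5 libraries), DESeq2 1.42.0, limma 3.58.1 (voom with quality weights per sample), a replicate block, each library left out, and the 7 libraries of at least 1000000 counts. Leaving out SF_HFD library 2 as well was chosen after seeing the data.

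All members were named by role. Full values went to the 4 highest and 4 lowest log2 fold changes and to the 2 members per role with the highest level per kilobase of the median transcript in GENCODE M21, which holds 94.7% of the row identifiers. In the 3 other cell cycle lists the 3 most abundant per length were named. An item of the marker lists is not reported here. Over 5% of the 31-base words were shared with other genes for 12 members, and 13 have an exon overlapping a gene on the opposite strand, so those counts are uncertain. The correlation of deviations showed no pairing of libraries by replicate number, though it cannot exclude one.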

Additional observations from a re-analysis of the deposited data

Results flagged for a closer look

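In 20 of 100 groups of 5 libraries (50 genes in 2 diets), the highest or lowest library stood apart from the other 4 by Dixon's test on log2 CPM. Chance gives about 1 in 20 groups where all libraries have the same normal spread. The 3 libraries under 1000000 counts have a larger counting error, so that rate does not hold here. The genes share libraries, so these are not independent. SF_HFD library 2 stood above its group for Mcm6 at 79.0 CPM, Mcm10 at 14.3 CPM, Usp1 at 78.1 CPM and Nasp at 124 CPM, genes of a helicase subunit, a helicase activator, a deubiquitinase and a histone chaperone. SF_HFD library 5, which has 727610 counts, stood apart for Rrm2 at 339 CPM and Wdr76 at 3.79 CPM, the first above and the second below its group. SF_CD library 1, the shallowest, stood below its group for 12 genes. These were Mcm2 at 0 CPM, Mcm3 at 36.1 CPM, Mcm4 at 2.25 CPM, Gmnn at 20.3 CPM, Cdc45 at 0 CPM and Gins1 at 2.25 CPM, all of licensing and the helicase, Prim2 at 0 CPM there too, and Rpa2 at 0 CPM, Ung at 0 CPM, Tyms at 72.1 CPM, Chaf1b at 2.25 CPM and Slbp at 4.51 CPM. SF_CD library 5 stood above its group for Lig1 at 409 CPM and Hells at 171 CPM, a ligase and a chromatin remodeller. What sets these libraries apart was not tested.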

How the results depend on the processing

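In none of the 19 alternatives was a replication gene called, and the lowest edgeR, DESeq2 or limma-voom adjusted p was 0.0687, for Lig1 under limma-voom with sample quality weights. The log2 fold change was negative in every setting for 19 members, Blm, Ccne2, Cdc45, Cdc6, Cdca7, Chaf1b, Clspn, Dscc1, Exo1, Gins1, Gins2, Lig1, Mcm7, Nasp, Pola1, Pold3, Prim1, Tyms and Wdr76, and positive in every setting for Cdt1 and Ung. The median of the members was -0.36 to 0.03 when each library was left out in turn, with 0.03 without SF_CD library 2, and -0.42 under limma-voom with those weights. The genes called over all, 38 in the 10 libraries, numbered 78 without a filter, 298 by DESeq2, 173 by limma-voom with those weights, 10 in the deeper libraries without SF_HFD library 2, and 16 to 88 with a library left out, 88 without SF_CD library 2, 24 without SF_CD library 4, and 19, 16 and 23 without SF_HFD libraries 2, 4 and 5. With the replicate block 22 were called, no member among them, and the median of the members was 0.02. Same-numbered libraries correlated at -0.07, -0.21, 0.14, -0.00 and -0.03, and only those of number 3 correlated best with their own number. These correlations show no pairing by number, but in libraries of such unequal depth they cannot exclude one. Of the genes of G2 and mitosis, DESeq2 called 4, Ndc80, Cenpf, Nusap1 and Bub1b, and limma-voom 3, Ndc80, Nusap1 and Bub1b. The log2 difference of Rrm2 to Rrm1 was -0.20 in the 7 deeper libraries, and -0.0019 to 0.42 with a library left out, with -0.0019 without SF_HFD library 5. The E2F words were in 34.2% of members' windows of 150 bases against 1.45% of all.

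Log2 fold changes of members changed sign as follows, and the cause was not tested. In the 7 deeper libraries they were Mcm2 -0.12, Mcm3 -0.19, Gmnn -0.56, Prim2 -0.20, Pole -0.15, Pole2 -0.53, Pcna -0.37, Rfc2 -0.59, Fen1 -0.75, Rrm1 -0.52, Rrm2 -0.82, Slbp -0.14, Hells 0.080, E2f8 0.39. Without SF_HFD library 2 as well they were Mcm2 -0.45, Mcm3 -0.55, Mcm6 -0.34, Gmnn -0.83, Prim2 -0.27, Pold1 -0.14, Pole -0.59, Pole2 -0.59, Pcna -0.50, Rfc2 -0.50, Fen1 -0.78, Rrm1 -0.66, Rrm2 -0.85, Slbp -0.27, E2f1 -0.30, Ccne1 -0.52. Under limma-voom with sample quality weights they were Mcm2 -0.15, Mcm3 -0.26, Mcm6 -0.085, Gmnn -0.42, Prim2 -0.31, Pold1 -0.0, Pole -0.39, Pole2 -0.42, Pcna -0.33, Rfc2 -0.25, Fen1 -0.46, Rrm1 -0.32, Rrm2 -0.51, Slbp -0.16, Ccne1 -0.17. With the replicate block they were Mcm4 0.13, Mcm5 0.16, Mcm10 0.13, Rfc3 0.026, Rfc4 0.0040, Rpa2 0.077, Tipin 0.035. Under RLE normalization they were Gmnn -0.0013, Rrm1 -0.032, by DESeq2 Gmnn -0.0012, Rrm1 -0.041, with the stricter filter Rrm1 -0.017 and with upper quartile normalization Rrm1 -0.0031. With a library left out in turn, 28 members changed sign at least once, and their lowest and highest values were Gmnn -0.22 to 0.27, Prim2 -0.0014 to 0.55, Pole -0.25 to 0.30, Pcna -0.18 to 0.25, Rfc2 -0.21 to 0.30, Fen1 -0.33 to 0.34, Rrm1 -0.21 to 0.14, Rrm2 -0.34 to 0.52, Slbp -0.097 to 0.37, Mcm4 -0.39 to 0.018, Mcm5 -0.34 to 0.19, Mcm10 -0.35 to 0.074, Rfc3 -0.16 to 0.12, Rfc4 -0.41 to 0.062, Rpa2 -0.46 to 0.046, Tipin -0.37 to 0.054, Tk1 -0.40 to 0.11, Pole2 -0.23 to 0.31, Dtl -0.64 to 0.10, Hells -0.67 to 0.080, E2f8 -1.13 to 0.70, Uhrf1 -0.48 to 0.021, Mcm6 -0.086 to 0.64, Pold1 -0.16 to 0.42, Usp1 -0.084 to 0.35, E2f1 -0.23 to 0.83, Ccne1 -0.099 to 0.79, Mcm3 -0.028 to 0.36. Depth limits these values, since 3 counts correspond to 6.76 CPM in SF_CD library 1 and 0.228 CPM in SF_CD library 4.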
